A study of Mus musculus with 3 samples.

Results

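Solute carriers are membrane proteins that move small molecules and ions across the plasma membrane and the membranes of organelles, and each numbered SLC family gathers carriers of related sequence. The set described here holds 113 protein-coding genes with an Slc symbol of the form Slc, number, a, number, of 18287 genes listed for these libraries. The mitochondrial Slc25a family was left out, as were 13 carriers of amino acids, iron and zinc named by the selection. A gene also needed 100 or more reads in the control library and the library given both agents together. Of 158 genes that met the name conditions, 45 fell under that count. Because the pattern asks for the letter a, families written with b to g (such as Slc35b and Slc35f) are outside the set. Of the 113, 4 genes carry an Slc symbol without being carriers themselves: Slc9a3r1 and Slc9a3r2, scaffold proteins that bind sodium/proton exchangers, Slc4a1ap, an adaptor protein, and Slc7a6os, a gene named for lying opposite Slc7a6.

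The cells were mouse aorta endothelial cells (MAECs) bought from a supplier, and polyadenylated RNA was sequenced from 1 library in each of 3 groups. The control library is labelled as control only. The glucose oxidase library came from cells given that enzyme (5 mU/mL, 30 min), which releases hydrogen peroxide as it oxidizes glucose. The remaining group received the same glucose oxidase exposure and 0.2 mM ethyl-2-hydroxybenzylamine (Et2HOBA) for 24 h; Et2HOBA was used in this study to scavenge isolevuglandin adducts. The sources used here give no strain, sex, passage or pooling for these cells. They also do not give the order of the exposures, nor the time from glucose oxidase to harvest. Cells with Et2HOBA alone were not analysed here, so an action of Et2HOBA by itself and an action on the oxidant response cannot be told apart.

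The libraries held 35969965 reads (control), 35005089 (glucose oxidase) and 40212212 (both agents) over the listed genes. For the glucose oxidase library, reads per gene were worked back from log2 differences in the authors' deposited table, as the processing section describes. That library stood apart outside protein-coding genes: processed pseudogenes took 0.389% of its reads, against 0.718% in control and 0.751% with both agents, and the shares past the limit given below differ between coding and all listed genes. All 8 endothelial markers examined were present, and together they took 0.952% of control reads, 0.569% after glucose oxidase and 0.479% with both agents. They did not move alike. In that library order Tek had 6786, 2877 and 1688 reads, Vwf 46607, 21567 and 12545, and Cldn5 50579, 25153 and 15378. Kdr had 61640, 27584 and 24227, Erg 5936, 3887 and 2697, and Tie1 78258, 46273 and 42662. Pecam1 had 37351, 26919 and 29562, and Cdh5 had 55360, 45034 and 63665, the most with both agents. Markers of smooth muscle (4 of 5 listed) summed to 44, 71 and 99 reads, and of epithelial markers only Krt8 was listed, at 1, 5 and 6 reads. Among 3 listed fibroblast markers, Pdgfra had 107, 1325 and 2821 reads, Pdgfrb 21, 43 and 71, and Col1a1 28, 30 and 23; Dpt and Lum were not listed. Among 3 listed leukocyte and macrophage markers, the lysosomal gene Cd68 had 8215, 17067 and 27799 reads, Lyz2 186, 76 and 86, and Csf1r 6, 12 and 10; Ptprc and Adgre1 were not listed. The part of these marker levels in the carrier results was not tested.

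With 1 library per group there is no replicate check and no p-value. Intervals in brackets after a fold are exact Clopper-Pearson intervals at 95% from the read numbers of the libraries compared. Such an interval holds sampling of reads alone and says nothing of spread between cultures. A log2 ratio is the log2 of normalized reads plus 10 in 1 library over the same in another, which understates the change of low genes; folds use normalized reads without that addition. A member is called higher or lower when its log2 ratio is 1 or more from 0. In bulk RNA, fewer cells of a kind and less RNA per cell cannot be told apart.

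In endothelium, carriers feed glucose, amino acids, nucleosides and vitamins to the cell and to the tissue behind it, set cell pH and volume by ion exchange, and supply organelles. Slc2a1 encodes GLUT1, the main glucose carrier of many endothelial cells. Slc20a1 encodes PiT-1, which brings phosphate into the cell with sodium. Of the 8 members higher than control in both treated libraries, Slc4a11, Slc14a1, Slc39a14 and Slc48a1 had no matched RefSeq promoter. The promoters of the other 4, and of the 1 member that was lower in both, are shown first. Each is 300 bases from RefSeq on GRCm38.p6, from 250 bases before a RefSeq start site to 50 after it, written 5′ to 3′ along the gene. Capitals mark, on either strand, the cores of the antioxidant response element (TGACNNNGC), metal response element (TGCGCNC or TGCACNC) and hypoxia response element (ACGTG) and the C/EBP-ATF composite (TGATGNAA); neighbouring matches run together.
Slc2a1 (chr4:119108495-119108794, plus strand): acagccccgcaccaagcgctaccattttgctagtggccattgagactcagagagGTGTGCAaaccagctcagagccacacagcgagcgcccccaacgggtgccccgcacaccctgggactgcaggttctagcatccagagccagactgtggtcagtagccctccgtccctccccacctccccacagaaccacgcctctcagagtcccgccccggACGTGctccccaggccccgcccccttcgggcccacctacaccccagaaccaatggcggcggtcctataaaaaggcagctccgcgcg
Slc20a1 (chr2:129198523-129198822, plus strand): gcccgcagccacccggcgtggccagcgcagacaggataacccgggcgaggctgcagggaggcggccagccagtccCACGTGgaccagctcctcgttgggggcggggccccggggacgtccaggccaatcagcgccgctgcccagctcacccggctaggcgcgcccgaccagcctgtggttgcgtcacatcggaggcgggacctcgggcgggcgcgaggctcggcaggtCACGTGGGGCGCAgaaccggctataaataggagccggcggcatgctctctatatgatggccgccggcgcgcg
Slc16a11 (chr11:70213660-70213959, plus strand): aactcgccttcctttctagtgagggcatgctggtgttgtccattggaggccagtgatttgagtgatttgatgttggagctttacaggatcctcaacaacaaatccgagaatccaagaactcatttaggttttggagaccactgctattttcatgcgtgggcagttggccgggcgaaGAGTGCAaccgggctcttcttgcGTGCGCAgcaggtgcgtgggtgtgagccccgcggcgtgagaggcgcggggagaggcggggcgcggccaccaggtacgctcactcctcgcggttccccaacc
Slc41a3 (chr6:90618996-90619295, plus strand): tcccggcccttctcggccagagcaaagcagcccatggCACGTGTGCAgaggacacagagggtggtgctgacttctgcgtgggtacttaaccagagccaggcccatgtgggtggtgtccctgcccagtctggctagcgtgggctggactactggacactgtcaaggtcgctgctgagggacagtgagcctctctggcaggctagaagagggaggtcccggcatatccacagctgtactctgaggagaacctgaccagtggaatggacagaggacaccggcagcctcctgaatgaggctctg
Slc2a6 (chr2:27027949-27028248, minus strand): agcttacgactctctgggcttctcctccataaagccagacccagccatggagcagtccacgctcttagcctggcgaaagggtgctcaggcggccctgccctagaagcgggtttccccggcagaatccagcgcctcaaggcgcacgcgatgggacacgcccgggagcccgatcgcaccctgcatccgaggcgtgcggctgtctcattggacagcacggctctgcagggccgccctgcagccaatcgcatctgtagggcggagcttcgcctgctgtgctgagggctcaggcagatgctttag

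Of the 113 members, 87 had at least 1 promoter in the RefSeq table, 121 promoters in all. Among the 14 members higher with both agents, Slc4a11, Slc14a1, Slc39a14, Slc48a1 and Slc6a8 had no matched promoter. Of the 8 lower members, Slc10a3 had none. The Slc2a1 promoter held 1 metal response core and 1 hypoxia core. The Slc20a1 promoter held ACGTG on both strands at 2 places (the letters CACGTG) and a metal response core beside the second. Another listed Slc20a1 promoter, not shown, held an antioxidant core. In the Slc16a11 promoter 2 metal response cores were found, and in that of Slc41a3 1 metal response core overlapped the ACGTG letters. The start sites of these 2 promoters lie inside the genes as listed. Slc41a3 is listed from 90604725 and its promoter from 90618996, and Slc16a11 from 70212752 and 70213660. The Slc2a6 promoter held none of the motifs. Counts by gene cover only members with a matched promoter. A metal response core was present in 8 of 9 higher with both agents, 3 of 7 lower and 28 of 71 others. Its share over the 27025 genes in the table was 28.2%. The ACGTG core was present in 3 of 9, 3 of 7 and 25 of 71, against 21.8% of genes. The antioxidant core was present in 2 of 9, 1 of 7 and 15 of 71, against 3781 of 27025 genes, and the C/EBP-ATF composite in 0 of 9, 0 of 7 and 3 of 71, against 4.51%. Per promoter, the shares over all 32851 promoters were 25.7%, 19.6%, 12.4% and 3.97% in the same order. Genes with several listed start sites have more sequence to match, and a match in these letters is not a site.

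After glucose oxidase, 9 members differed from control by 1 log2 unit or more, 8 higher and 1 lower. Of 11151 protein-coding genes with the same minimum count, 4.14% were higher and 4.48% lower; the members' shares were 7.08% and 0.885%. The background was 4.07% higher and 8.60% lower over all listed genes. The control library also enters the minimum, and Slc4a11 reached it only through the library with both agents. Nothing is therefore read from the members' shares here. The 8 higher members carry unlike substrates: urea (Slc14a1), glucose (Slc2a1), phosphate (Slc20a1), zinc and other metals (Slc39a14), heme (Slc48a1), monocarboxylates (Slc16a11), magnesium (Slc41a3) and, for Slc4a11, protons and ammonia. The lower member, Slc2a6, encodes the lysosomal hexose carrier GLUT6. The median log2 ratio of members was 0.11, against 0.04 over protein-coding genes with the same minimum and -0.01 over all listed genes.

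With both agents, 22 members passed the limit against control, 14 higher and 8 lower. Protein-coding genes with the same minimum were higher in 7.12% and lower in 8.85%, and the members' shares were 12.4% and 7.08%. The reads that fixed the minimum come from these same libraries, so nothing is read from the counts of this comparison. The 14 comprise the 8 named above and Slc6a8, Slc24a1, Slc18a2, Slc45a3, Slc23a2 and Slc37a4. The 8 lower members were Slc2a6, Slc4a4, Slc12a5, Slc9a3r1, Slc22a18, Slc10a3, Slc22a17 and Slc29a1. The median over members was 0.15, beside 0.03 over protein-coding genes with the same minimum. Without the minimum these medians were 0.00642 and 0.00110, so nothing is read from the difference either. Both comparisons use the 1 control library, so their values are given side by side and are not independent.

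**Figure D1:**
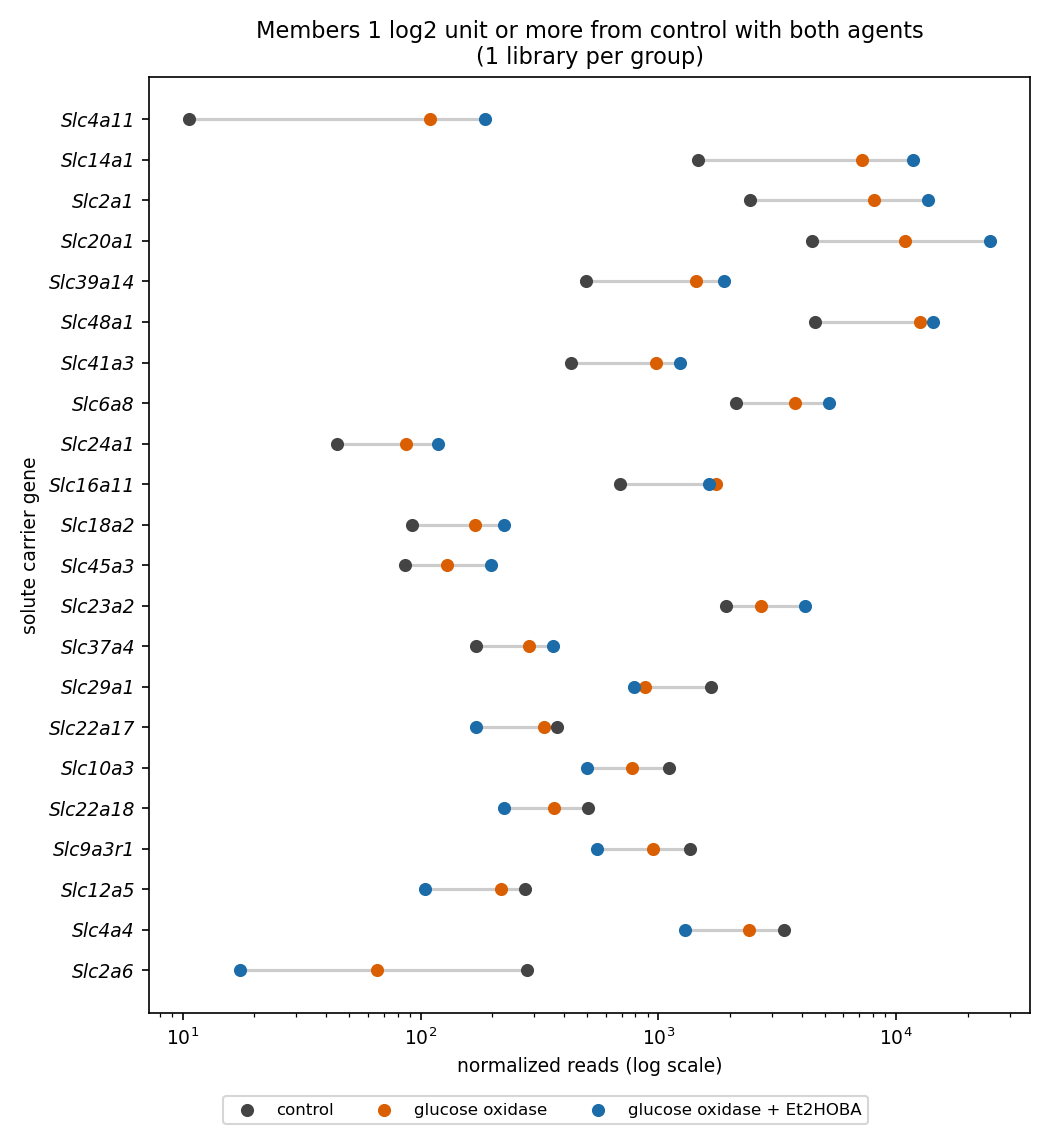
Normalized reads (log axis) of the 22 members 1 log2 unit or more from control with both agents, 1 point per library and 1 row per gene, ordered by log2 ratio. The 14 higher members lie above and the 8 lower members below; Slc4a11 has the widest spread among the higher genes and Slc2a6 among the lower.

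Hexose carriers held the lowest log2 ratio of the set, that of Slc2a6, and one of the highest, that of Slc2a1. Slc2a1 (ENSMUSG00000028645.11, chromosome 4, 119108711 to 119137983, plus strand) had 2504, 7825 and 14196 reads in the control, glucose oxidase and both-agent libraries, the order kept for all read values below. Its normalized level was 3.34-fold control (3.19 to 3.50) and 5.63-fold control (5.40 to 5.88). The control library was lowest and the library with both agents highest. An antisense gene over Slc2a1 exons, Gm12868, had 4, 13 and 27 reads.

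Slc2a6 (ENSMUSG00000036067.12, chromosome 2, 27021363 to 27027998, minus strand) ran the opposite way, with 289, 63 and 18 reads. It was 4.29-fold lower after glucose oxidase and 16.2-fold lower with both agents, where its ratio to control was 0.0619 (0.0362 to 0.0996). Slc2a9, a urate and hexose carrier, had 1866, 1663 and 1249 reads, and its log2 ratio with both agents was -0.58. Slc2a8, an endosomal and lysosomal hexose carrier, had 705, 711 and 1014 reads, and Slc50a1, also called SWEET1, had 1533, 1951 and 2029. Slc45a3, placed with the sugars by its family, had 89, 124 and 205 reads and was 2.29-fold control with both agents (1.78 to 2.97). Of its longest transcript, 10.6% of 50-base stretches occur in another gene. Among the 7 members of this class the log2 ratios with both agents ran from -3.41 to 2.49. The liver-type carrier Slc2a2, with 92, 29 and 3 reads, missed the minimum by 5 reads and is outside the set.

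Glucose uptake is also set by the arrestin-like proteins Txnip and Arrdc4, which promote removal of glucose carriers from the cell surface. Txnip had 11691, 12408 and 5965 reads, with log2 ratios of 0.18 after glucose oxidase, -0.98 with both agents and -1.16 between the treated libraries. Arrdc4 had 2142, 1464 and 914 reads, with a log2 ratio of -1.23 with both agents. Both genes were lowest in the library where Slc2a1 was highest. After glucose oxidase Slc2a1 was 3.34-fold control, with Txnip at 0.18 and Arrdc4 at -0.45 in log2 ratio. A link between these levels was not tested. Inside the cell, the glucose 6-phosphate carrier Slc37a4 of the endoplasmic reticulum had 176, 277 and 375 reads, 2.12-fold control with both agents (1.77 to 2.55). Its family members Slc37a2 and Slc37a3 had log2 ratios of -0.53 and -0.21.

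Slc20a1 (ENSMUSG00000027397.14, chromosome 2, 129198764 to 129211616, plus strand) had 4562, 10492 and 25708 reads, the largest gain in normalized reads of any member with both agents; after glucose oxidase that of Slc48a1 was larger. It was 2.46-fold control after glucose oxidase (2.37 to 2.55) and 5.60-fold with both agents (5.43 to 5.78). The 2 genes that overlap its exons on the other strand, 9830144P21Rik and Gm4430, had 99, 331 and 469 reads and 164, 124 and 93. The second phosphate carrier, Slc20a2 or PiT-2, had 1776, 2023 and 2475 reads and a log2 ratio of 0.47 with both agents. The 2 carriers thus differed in size of change while both were highest with both agents. The 5 members with the largest gains in normalized reads with both agents were Slc20a1, Slc2a1, Slc14a1, Slc48a1 and Slc43a3, and they held 60.2% of the summed gains. Reads on all members made up 0.545% of the control library, 0.630% after glucose oxidase and 0.672% with both agents.

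Slc14a1 (ENSMUSG00000059336.14) encodes the urea carrier UT-B, found in red cells and in endothelium of the kidney's descending vessels. It had 1519, 6925 and 12221 reads. These levels were 4.87-fold control (4.61 to 5.16) and 7.99-fold control (7.58 to 8.44). It was the only member of its class, and no other annotated gene overlapped its exons or shared a 50-base stretch.

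Slc4a11 (ENSMUSG00000074796.10, chromosome 2, 130684113 to 130697519, minus strand) belongs to the bicarbonate family by sequence. It had 11, 106 and 194 reads and reached the minimum only through the treated library. Its log2 ratios of 2.54 and 3.25 were the highest of the set, and the fold with both agents was 17.5 with a wide interval (9.58 to 35.7). Even with both agents its level was low. Of the other 4 bicarbonate carriers, Slc4a7 was higher than control in both treated libraries and the remaining ones were lower. Slc4a4, the electrogenic sodium bicarbonate cotransporter NBCe1, had 3494, 2316 and 1350 reads and was 2.60-fold lower with both agents (2.45 to 2.78). Slc4a7, the sodium bicarbonate cotransporter NBCn1, had 660, 750 and 1265 reads, a log2 ratio of 0.92. Slc4a2, a chloride/bicarbonate exchanger, had 2693, 1846 and 1656 reads, and Slc4a8 had 492, 357 and 373. The log2 ratio of Slc4a2 with both agents was -0.71, and Fastk, which overlaps it on the other strand, had 2605, 3293 and 3555 reads.

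Most other ion carriers lay closer to control. Of 4 sodium/proton exchangers none passed the limit in any comparison. Slc9a5 had 1022, 1595 and 1672 reads, with log2 ratios of 0.73 and 0.70 against control. The scaffold genes named for these exchangers were lower: Slc9a3r1 had 1397, 913 and 573 reads, 2.45-fold lower with both agents (2.22 to 2.71), and Slc9a3r2 had 14266, 10517 and 8963, a log2 ratio of -0.68. Among 7 cation-chloride cotransporters only Slc12a5, the potassium chloride cotransporter KCC2 known from neurons, passed the limit. It had 284, 211 and 108 reads and was 2.65-fold lower with both agents (2.11 to 3.33). Slc12a4, the widely expressed KCC1, had 3209, 4779 and 6162 reads, a log2 ratio of 0.93, while its relative Slc12a7 (KCC4) had 5612, 3987 and 3784, at -0.58. Slc12a2 (NKCC1), which loads cells with chloride, had 2667, 2839 and 3053 reads. Wnk1, a kinase that controls these cotransporters, had 38644, 31997 and 39270 reads and a log2 ratio of 0.01 with both agents. Slc24a1, a calcium exchanger, was low at 46, 84 and 123 reads and 2.66-fold control with both agents (1.88 to 3.81). Like Slc4a11, Slc24a1 reached the minimum only through its higher reads in the treated library. Slc8a1 (NCX1) had 1960, 1485 and 1634.

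Metal and heme carriers were mostly near control, with 3 exceptions. Slc39a14 (ENSMUSG00000022094.15, chromosome 14, 70303469 to 70351425, minus strand) encodes ZIP14, which imports zinc, iron and manganese. It had 512, 1390 and 1959 reads, or 2.90-fold control (2.62 to 3.22) and 3.8-fold control (3.45 to 4.20). The other 10 SLC39 members lay between -0.28 and 0.70 in log2 ratio with both agents, and the class median was 0.16. Slc39a1, the most abundant of them per length, had 5806, 5709 and 6217 reads, and 21.8% of its stretches occur in another gene. Slc39a8 (ZIP8), the closest relative of ZIP14, had 240, 222 and 222 reads. None of the 5 zinc exporters of the SLC30 family passed the limit; they lay between -0.15 and 0.90. The highest, Slc30a4, had 3670, 5125 and 6890 reads and a fold of 1.87 with both agents (1.79 to 1.94). The copper carriers Slc31a1 and Slc31a2 had log2 ratios of -0.09 and -0.62.

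**Figure D2:**
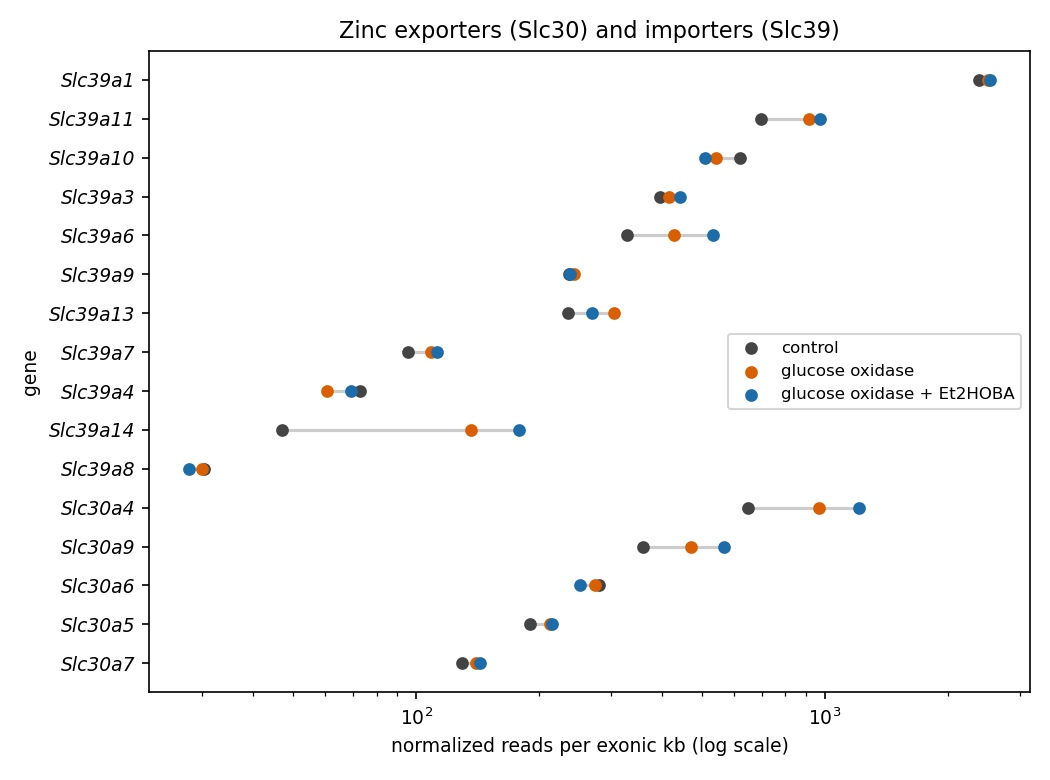
Normalized reads per exonic kilobase (log axis) of the 16 zinc carriers in the 3 libraries, 1 point per library, exporters (Slc30) below and importers (Slc39) above. Slc39a14 shows the widest spread, up to 179 with both agents, while Slc39a1 stays highest in each library.

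Slc48a1 (ENSMUSG00000081534.3, chromosome 15, 97778520 to 97792692, plus strand) encodes HRG1, which moves heme out of endosomes and lysosomes. It had 4725, 12122 and 14800 reads, or 2.74-fold control (2.65 to 2.84) and 3.11-fold control (3.01 to 3.22). Most of the difference was already present after glucose oxidase, and the treated libraries differed by 1.13-fold (1.11 to 1.16). Hdac7, which overlaps Slc48a1 on the other strand, had 8394, 8121 and 7676 reads, a range far narrower than that of Slc48a1. Per exonic length Slc48a1 was the third highest member in control, at 1664 normalized reads per kb, and the highest in both treated libraries, at 4565 and 5180. Slc41a3, of the magnesium family, had 444, 944 and 1285 reads, 2.88-fold control with both agents (2.58 to 3.21). Its relatives Slc41a1 and Slc41a2 had log2 ratios of 0.58 and 0.50.

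Slc16a11 and Slc16a13, carriers of the monocarboxylate family, lie tail to tail on chromosome 11 with 372 bases between them. Slc16a11 (ENSMUSG00000040938.16, 70212752 to 70216417, plus strand) had 710, 1687 and 1691 reads. It was 2.54-fold control after glucose oxidase (2.33 to 2.78) and 2.37-fold with both agents (2.17 to 2.59). Slc16a13 (70216789 to 70221064, minus strand) had 2022, 3271 and 3786 reads, with log2 ratios of 0.79 and 0.89. Both neighbours were thus higher in each treated library, and for Slc16a11 the 2 treated libraries were nearly equal. Slc16a1 (MCT1), the lactate carrier that needs Bsg (basigin) to reach the cell surface, had 1631, 1403 and 1746 reads. Bsg had 17659, 15631 and 18305 reads and a log2 ratio of 0.04 with both agents. The lactate exporter Slc16a3 (MCT4), with 22, 22 and 10 reads, was under the minimum. Neither the Slc16a11 and Slc16a13 pair nor any of the 5 other pairs of members within 100000 bases of each other had both genes past the limit in any comparison.

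Carriers of small organic solutes and vitamins included several of the moderate changes. Slc6a8, the creatine carrier, had 2186, 3610 and 5445 reads, 2.47-fold control with both agents (2.35 to 2.60). The taurine carrier Slc6a6, one of the most abundant members, had 7956, 8150 and 8043. Slc23a2 (SVCT2), which imports ascorbate, had 1989, 2600 and 4300 reads and was 2.15-fold control with both agents (2.04 to 2.27). Here the glucose oxidase library lay between the other two. Slc18a2 (VMAT2), which loads amines into vesicles, had 95, 164 and 233 reads, 2.44-fold control (1.91 to 3.13). The thiamine carrier Slc19a2 had 1267, 1723 and 2217 reads, with a log2 ratio of 0.79, and the folate carrier Slc19a1 had 597, 598 and 668. The riboflavin carriers Slc52a2 and Slc52a3 had log2 ratios of 0.45 and -0.25, and the multivitamin carrier Slc5a6 had 0.02.

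Nucleoside carriers split. Slc29a1 (ENT1), the main equilibrative nucleoside carrier and the one that takes up adenosine in endothelium, had 1720, 846 and 823 reads. It was 1.90-fold lower after glucose oxidase and 2.10-fold lower with both agents (1.93 to 2.29). Its counts in the 2 treated libraries were close, unlike those of most other lower members. Slc43a3, a purine nucleobase carrier, had 5295, 7004 and 10312 reads, a log2 ratio of 0.95 with both agents. Slc29a2 (ENT2) had 57, 111 and 82 reads, highest after glucose oxidase, and the lysosomal Slc29a3 had 2188, 2046 and 1710.

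Organic ion carriers of the SLC22 family were mixed, and only lower members passed the limit. Slc22a18 had 523, 350 and 232 reads, 2.27-fold lower with both agents (1.94 to 2.66). Slc22a17, described as a receptor for the iron-binding protein lipocalin 2, had 387, 319 and 178 reads, 2.19-fold lower (1.83 to 2.63). Slc22a15 had 437, 260 and 313 reads, the fewest in the glucose oxidase library, and log2 ratios of -0.63 and -0.48. Slc22a5 and Slc22a4, the carnitine and ergothioneine carriers, lie on either side of Slc22a21 on chromosome 11. They had 1074, 925 and 692 reads and 549, 596 and 913 reads, and so differed in direction, with log2 ratios of -0.64 and 0.71 with both agents. Of their 50-base stretches, 27.1% and 2.98% occur in other genes. Slc10a3, a member of the bile acid family by sequence, had 1143, 750 and 518 reads and was 2.22-fold lower (2.00 to 2.47). Ubl4a overlaps Slc10a3 on the same strand and had 1403, 1299 and 1438 reads, so reads in their common part may be shared.

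Several classes held no member past the limit in any comparison. The 8 amino acid carriers left in the set had a median log2 ratio of -0.02 with both agents and ran from -0.72 to 0.52. Among them Slc43a2 (LAT4) had 2564, 4178 and 2900 reads, so it was high only in the glucose oxidase library. Slc38a9, the lysosomal arginine sensor of the mTORC1 pathway, had 534, 588 and 701 reads, and Slc38a7, a lysosomal glutamine carrier, had 1991, 2120 and 2565. Of 12 carriers of amino acids, iron and zinc left out by name that reached the same minimum, 8 were higher and 0 lower in each comparison with control. Protein-coding genes with that minimum were higher in 4.14% and lower in 4.48% after glucose oxidase, and in 7.12% and 8.85% with both agents. Lists were chosen with earlier results of these data known, so nothing is read from the count of those 12. Slc38a6 had 1773, 1241 and 1079 reads and Slc7a7 1299, 883 and 817, with log2 ratios of -0.72 and -0.67; 44.2% of the stretches of Slc38a6 occur in other genes. The 5 nucleotide sugar carriers of the SLC35 family, which feed glycosylation in the Golgi, ran from -0.60 to 0.32. The lowest was Slc35a4, with 3021, 2206 and 2002 reads, and Slc35a5 had 711, 488 and 503. Of the SLC26 anion exchangers, Slc26a2, a sulfate carrier, had 1025, 720 and 682 reads and Slc26a11 411, 423 and 574. The inositol carrier Slc5a3 had 706, 732 and 966 reads, the lysosomal sialic acid carrier Slc17a5 1396, 1761 and 1975, and the lysosomal peptide and histidine carrier Slc15a4 1010, 1084 and 1418. For the fatty acid proteins, Slc27a1 had 1206, 1900 and 2375 reads and Slc27a4 2335, 1704 and 1557, log2 ratios of 0.96 and -0.59. The choline-like carriers Slc44a1 and Slc44a2 had log2 ratios of -0.49 and -0.02. Slc33a1, the acetyl-CoA carrier of the endoplasmic reticulum, had 748, 610 and 695 reads.

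**Figure D3:**
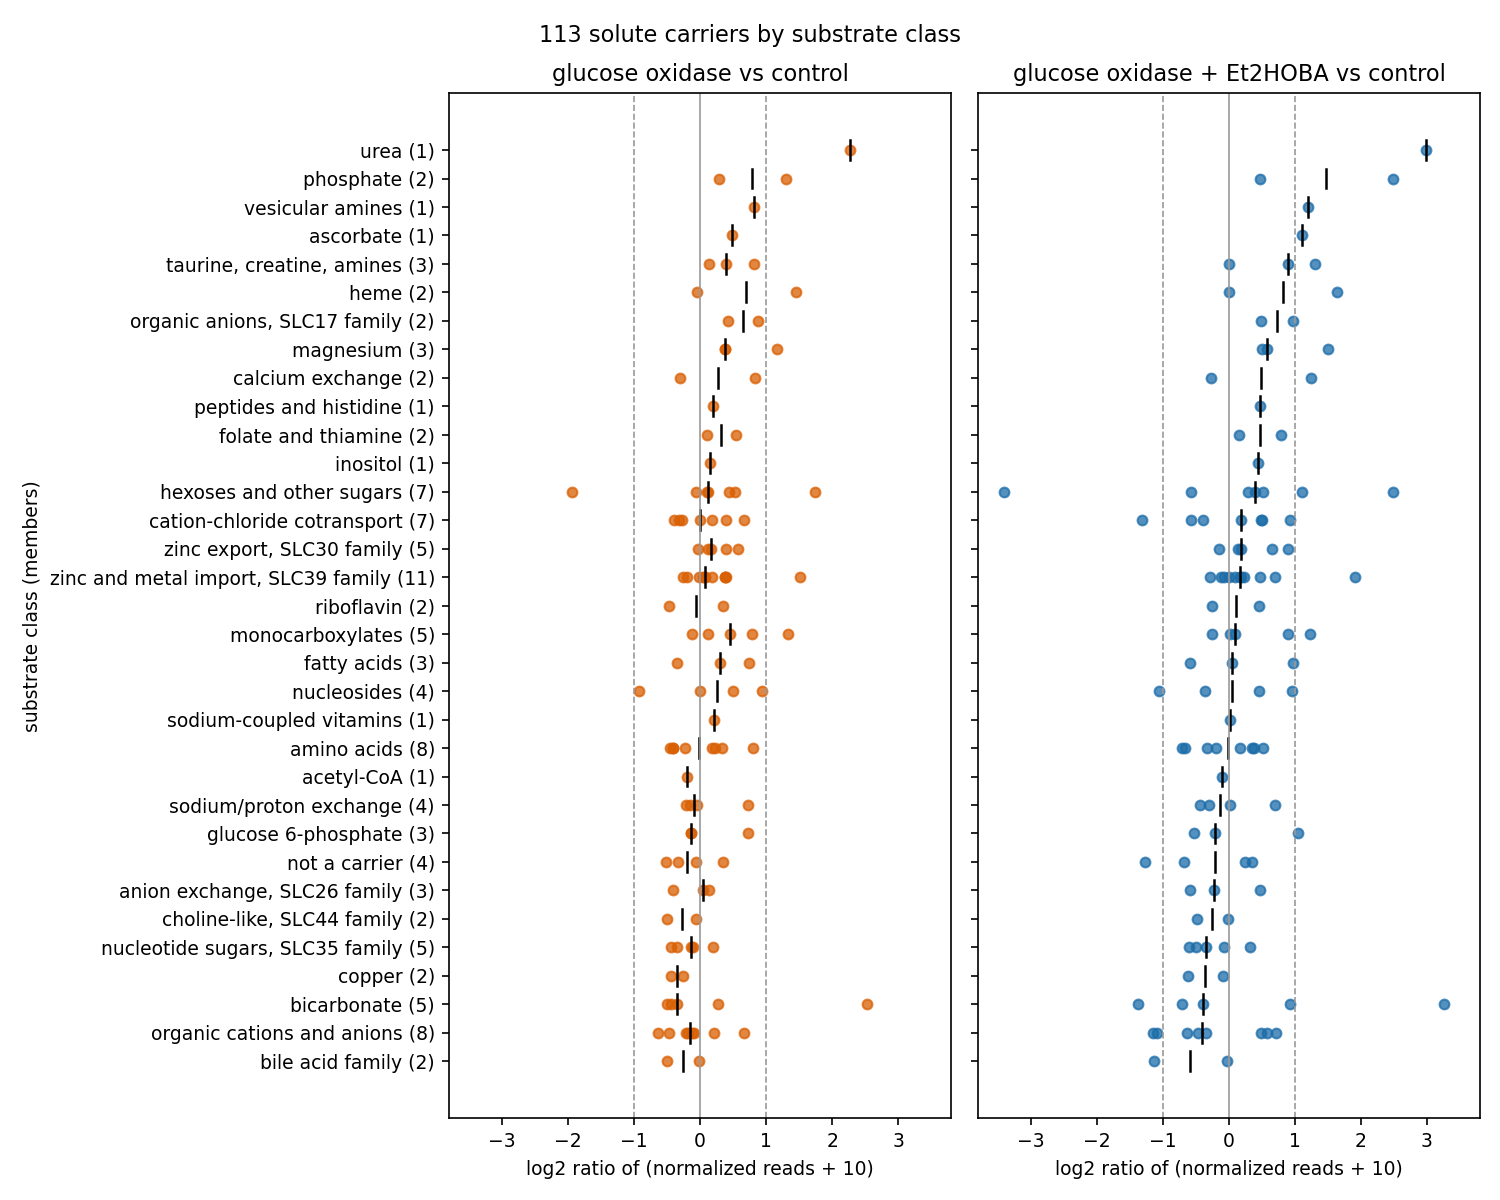
Log2 ratio of normalized reads plus 10 against control for all 113 members by substrate class, after glucose oxidase (left) and with both agents (right); each point is a gene, the black bar the class median and the dashed lines the limit of 1. Most points lie between the dashed lines, and the hexose and bicarbonate classes hold the widest ranges with both agents, -3.41 to 2.49 and -1.37 to 3.25.

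Grouped by place in the cell, from a list written after the values were known, 35 of the 109 carriers sit mainly in organelles. With both agents 3 of these were higher (Slc48a1, Slc18a2 and Slc37a4) and 1 lower (Slc2a6). Over protein-coding genes with the same minimum these shares were 7.12% and 8.85%, and nothing is read from the counts by place. Of the other 74, at the plasma membrane or not placed, 11 were higher and 6 lower. The medians were close, at 0.14 and 0.16. None of 13 Golgi carriers passed the limit, and they ran from -0.60 to 0.48. Of 10 carriers placed in lysosomes only, Slc2a6 passed it, and their median was 0.37; Slc48a1 was placed in endosomes and lysosomes together.

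Between the treated libraries 3 members passed the limit, 1 higher and 2 lower with Et2HOBA. Of protein-coding genes with the same minimum, 0.816% were higher and 2.27% lower, and the members' shares of 0.885% and 1.77% were near these. Over all listed genes the split was 6.39% higher and 2.15% lower. Slc20a1 was 2.28-fold higher (2.23 to 2.33) than after glucose oxidase alone. Slc2a6 had a log2 ratio of -1.46. Slc12a5 lay at the limit, and with size factors over protein-coding genes the split was 1 higher and 1 lower. Next among the higher members were Slc2a1, Slc4a11 and Slc14a1, with log2 ratios of 0.75, 0.72 and 0.71. Next among the lower were Slc22a17 and Slc4a4, at -0.91 and -0.88. Slc4a7, Slc23a2, Slc45a3 and the lysosomal Slc46a3 followed on the higher side at 0.64, 0.62, 0.58 and 0.58, Slc46a3 with 689, 603 and 972 reads. On the lower side Slc9a3r1, Slc22a18, Slc43a2, Slc10a3 and Slc22a5 lay between -0.77 and -0.52. The members' median was 0.04, beside -0.01 over protein-coding genes with the same minimum. For 80 of 113 members the counting interval of this difference left out equal levels, which reflects depth and not spread between cultures. The same was not counted over all genes, so nothing is read from this number.

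**Figure D4:**
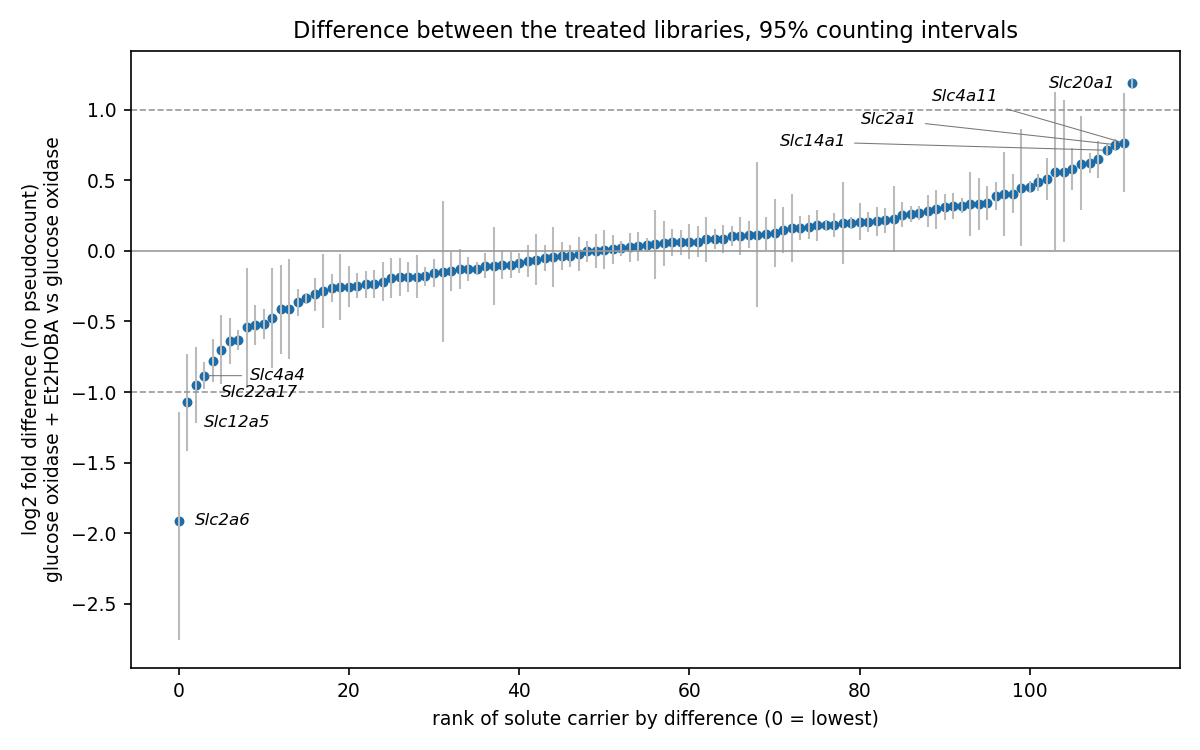
Log2 fold difference of the 113 members between the library with both agents and the glucose oxidase library, without pseudocount, ordered by rank; bars are 95% counting intervals and dashed lines mark 1 and -1. Slc20a1 lies above 1, Slc2a6 and Slc12a5 below -1, and most members lie within 0.5 of 0.

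Levels were compared between genes per exonic length. In control the members ran from 2.13 to 5224 normalized reads per kb, with a median of 236. The highest was the scaffold gene Slc9a3r2 at 5224, followed by Slc39a1 at 2380, Slc48a1 at 1664, Slc43a3 at 1149, Slc38a10 at 1084 and Slc50a1 at 1013. With both agents the order at the top was Slc48a1 at 5180, Slc20a1 at 4436, Slc2a1 at 3899 and Slc9a3r2 at 3261. In control Slc20a1 had stood at 792 and Slc2a1 at 692. The members just inside the minimum were Slc17a9, with 31, 61 and 71 reads, and Slc12a8, with 49, 46 and 73. Just outside were Slc24a3, with 52, 48 and 46, and Slc2a2. The 45 genes under the minimum also included Slc11a1, a metal carrier of phagocytes, with 2, 40 and 59 reads, and Slc15a3, a lysosomal histidine and peptide carrier, with 34, 3 and 0.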

How the data were processed

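Polyadenylated RNA of mouse aorta endothelial cells was sequenced from 1 stranded library per group, per the labels' protocols. The submitters' processing notes name STAR, featureCounts and mm10; versions, annotation and strand setting of the counting are not given in the sources used here. The authors deposited raw read counts of the control library and the library with both agents, with log-normalized values and their log2 difference, per the file headers. For glucose oxidase against control they deposited symbols and log2 differences without a header, and for the treated libraries 7 genes, none a member.

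The authors' transformation is not given in the sources used here. It was taken to be an asinh of square-rooted counts with a library constant, and solving it for the missing library returned whole reads (tolerance 0.01) for 100% of 18275 symbol-matched genes. The same step on control counts raised by 1 read returned whole reads for 3.31%. Whole reads also placed 12 more genes. The inversion was tested on simulated data. Size factors by the median-of-ratios method over the 3 libraries were 1.03, 0.965 and 1.04, and 10 was added to each scaled count before log2. Exon lengths, overlaps and 50-base stretches came from GENCODE M21, where 17878 listed genes have the same identifier and position. All 113 members had a length; 34 share a stretch with another gene and 29 have exons overlapped by a gene on the other strand, whose reads cannot be told apart where strand was not used.

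The members and lists were chosen with earlier results of these data known. No count model was fitted with 1 library per group. Text values follow a rule: the 15 highest and 15 lowest members against control, the 8 highest and lowest between treated libraries, and the most abundant member per length of each class; other members were named after their values were seen. Alternatives varied scaling, pseudocount (1), limit (0.5), minimum, gene overlap and scale. Computation used Python 3.11.15, numpy 2.4.6, pandas 2.3.3, scipy 1.17.1 and matplotlib 3.10.9. Results for some genes are not reported here.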

Additional observations from a re-analysis of the deposited data

How the results depend on the processing

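With a limit of 0.5 log2 unit the members past it numbered 28 after glucose oxidase, 52 with both agents and 19 between the treated libraries, against 9, 22 and 3. Shares of all genes past that limit were not counted, so nothing is read from these numbers. With both agents the quartiles of protein-coding genes with the same minimum were -0.36 and 0.38. Without the minimum count, over 158 genes and at the limit of 1, the count after glucose oxidase was 14, with 10 higher (6.33%) and 4 lower (2.53%). Of protein-coding genes without that minimum, 4.53% were higher and 4.76% lower. The median with both agents was 0.00642 without the minimum and 0.00126 with total-count scaling, which put the median of all genes at -0.13, against 0.15 as reported. Between the treated libraries total-count scaling turned the members' median from 0.04 to -0.05, with all genes at -0.08. The other alternatives gave 8 to 11 members after glucose oxidase on the common scale and 7 on that of the authors' deposited table, and 16 to 29 with both agents. The split with both agents was 14 higher and 8 lower as reported. It was 11 and 8 with total-count scaling, and 12 and 4 over members with no shared stretch. Without the minimum count it was 16 (10.1%) and 13 (8.23%). For protein-coding genes without that minimum, 7.33% were higher and 9.30% lower. Chosen after seeing the data, size factors over the 2 libraries compared gave 9, 22 and 2 members, so the count with both agents was as large without the glucose oxidase library; members with no overlapping gene gave 6, 15 and 2. Of 60 named genes none past the limit changed sign under any scaling, pseudocount or scale tried, and 84 of their values moved beyond counting error. No leaving-out of replicates and no paired analysis was possible because each group has 1 library. Depth limits Slc4a11 in control (11 reads) and Slc2a6 with both agents (18 reads).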

Other observations

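Transporters outside the SLC symbols were counted over genes with the same minimum, from patterns set for comparison. Of 26 ATP-binding cassette genes, 5 were higher and 0 lower after glucose oxidase, and 5 were higher and 2 lower with both agents. Over protein-coding genes with that minimum, 4.14% were higher and 4.48% lower after glucose oxidase, and 7.12% and 8.85% with both agents; all list counts here stand beside these shares. The highest was Abcc4, which exports cyclic nucleotides and organic anions. It had 1552, 5552 and 8299 reads (libraries ordered as above), with log2 ratios of 1.93 and 2.40 against control. Abcc1, an exporter of glutathione conjugates, had 5160, 15994 and 23288 reads, and the drug exporter Abcb1a had 122, 309 and 564. The cholesterol exporter Abca1 had 7307, 4396 and 3280 reads, with a log2 ratio of -1.16 with both agents.

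Of 7 ion pump genes, 2 plasma membrane calcium pumps were lower in both comparisons with control. Atp2b4 had 231, 58 and 30 reads and Atp2b2 124, 9 and 1, while the abundant Atp2b1 had 7828, 8969 and 14341, a log2 ratio of 0.86 with both agents. None of 15 Mfsd genes passed the limit in any comparison. Of 38 mitochondrial Slc25 carriers, 2 were higher after glucose oxidase, and 2 were higher and 2 lower with both agents. These genes were named after their values were seen.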
